A study of Mus musculus with 14 samples.

Results

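The question addressed was whether loss of Smad4 alters the transcriptome of mouse forelimb buds in the same way at the onset of limb bud development and during early outgrowth. For each gene, the genotype effect at E10.5 (the log2 fold change of mutant over wild-type forelimb buds) was set against the genotype effect at E10.0, and the difference between both effects was tested. All 12806 genes with at least 1 CPM (a read count scaled to the size of its library) in 3 or more of the 14 samples were analysed, out of 23284 gene symbols in the count tables. The samples were 3 wild-type and 4 mutant embryos at E10.0 (30 somites), and 3 wild-type and 4 mutant embryos at E10.5 (35 somites), with both forelimb buds of 1 embryo forming 1 sample. Wild-type embryos were Smad4+/+ PrxCreT/+ and mutant embryos were Smad4Δ/Δc PrxCreT/+, with a constitutive null allele and a conditional allele of Smad4, so that all groups carried the CRE transgene. The transgene is driven by Prrx1 regulatory sequence and recombines the conditional allele in the limb bud mesenchyme, while the ectoderm, the endothelium, blood cells and muscle progenitors migrating in from the somites are not its targets. The labelled strain of all embryos was NMRI, and the embryos of the 2 stages were different animals.

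SMAD4 is the shared partner of the receptor-activated SMAD proteins, and enters the nucleus with them to regulate target genes in response to BMP and TGFβ ligands. In early limb buds, mesenchymal BMP activity is high at the onset of budding and is then lowered by the antagonist GREM1, while SHH and FGF signalling take over the control of outgrowth. Cholesterol is made from acetyl-CoA through mevalonate, squalene, lanosterol and a last series of reductions and demethylations. Its enzymes are controlled together by SREBP transcription factors, which leave the endoplasmic reticulum when sterols are scarce, and cholesterol is also required to modify SHH. The mesothelium is the epithelium lining the body cavity next to the limb bud, and skeletal muscle differentiates earlier in the somites of the trunk than in the limb bud itself.

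The samples held 34066930 to 61691258 reads assigned to genes. Smad4 transcripts amounted to 163, 147 and 156 CPM in the wild-type embryos at E10.0 and 36.9, 44.2, 36.4 and 35.6 CPM in the mutants, and at E10.5 to 161, 157 and 160.5 CPM in wild type and 39.1, 37.2, 31.7 and 34.2 CPM in mutants. The groups did not overlap at either stage, and this effect differed between the stages by -0.15 on the log2 scale (standard error 0.12, adjusted p = 0.953, edgeR's quasi-likelihood test with Benjamini-Hochberg adjustment). Mutant replicates 4 and 5 of both stages stood apart from the other 10 samples, with 1.72% to 8.05% of the assigned reads on the ribosomal RNA precursor, while this share was 0.151% to 0.478% elsewhere. No wild-type sample was of this kind, so that genotype and a technical origin cannot be told apart. Main results are therefore also given without these 4 samples, a fit that rests on 2 mutant embryos per stage, and with a term in the model that marks them, an alternative that was added after the data had been seen. The forelimb gene Tbx5 reached 95.2 to 119 CPM in wild type and 73.9 to 101 CPM in mutants at E10.0, while the hindlimb gene Tbx4 was at 1.46 to 4.13 and 2.13 to 4.53 CPM, and at E10.5 at 6.36 to 8.2 CPM in wild type and 11.9 to 15.4 CPM in mutants. As whole forelimb buds were sequenced, fewer cells of a type and less RNA per cell cannot be told apart in any result.

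At an FDR of 0.1, the genotype effect differed between E10.0 and E10.5 for 22 genes, or 0.172% of the genes tested (all adjusted p values are from edgeR's quasi-likelihood test with Benjamini-Hochberg adjustment). The effect was more positive at E10.5 for 7 genes (0.0547%) and more negative for 15 (0.117%), and 725 genes (5.66%) had an unadjusted p under 0.05. At E10.0, 615 genes (4.8%) were called, meaning that they passed an FDR of 0.1 and differed at least 1.2-fold between the genotypes, with 278 higher (2.17%) and 337 lower (2.63%) in mutants. At E10.5, 341 genes (2.66%) were called, with 203 higher (1.59%) and 138 lower (1.08%). Using these calls, the 22 genes fell into 11 that were altered only at E10.0, 4 that were altered only at E10.5, and 7 that were altered in opposite directions. All 7 opposite genes were higher in mutants at E10.0 and lower at E10.5. No gene with a called difference between the stages had the same direction of effect at both, and none lacked a genotype call at both. Under DESeq2, 2 and 6 genes, respectively, were of these kinds.

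Most genes called at a single stage did not pass the test of the difference between the stages. Of the 470 genes called at E10.0 but not at E10.5, 11 passed the test of the difference itself, and 182 had an unadjusted p under 0.05. Of the 196 genes called at E10.5 but not at E10.0, 4 passed and 86 had an unadjusted p under 0.05. The 337 genes lower in E10.0 mutants had a median log2 fold change of -0.44 at that stage, the stage by which they were chosen, and of -0.17 at E10.5, where 299 of them (88.7%) were again lower. The 278 genes higher in E10.0 mutants had medians of 0.49 and 0.23, with 250 (89.9%) higher at E10.5. In the other direction, 187 of the 203 genes higher at E10.5 (92.1%) were also higher at E10.0, and 117 of the 138 genes lower at E10.5 (84.8%) were also lower. Among the 145 genes called at both stages, 138 had the same direction (71 higher and 67 lower), and for none of these did the test of the difference pass.

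**Figure D1:**
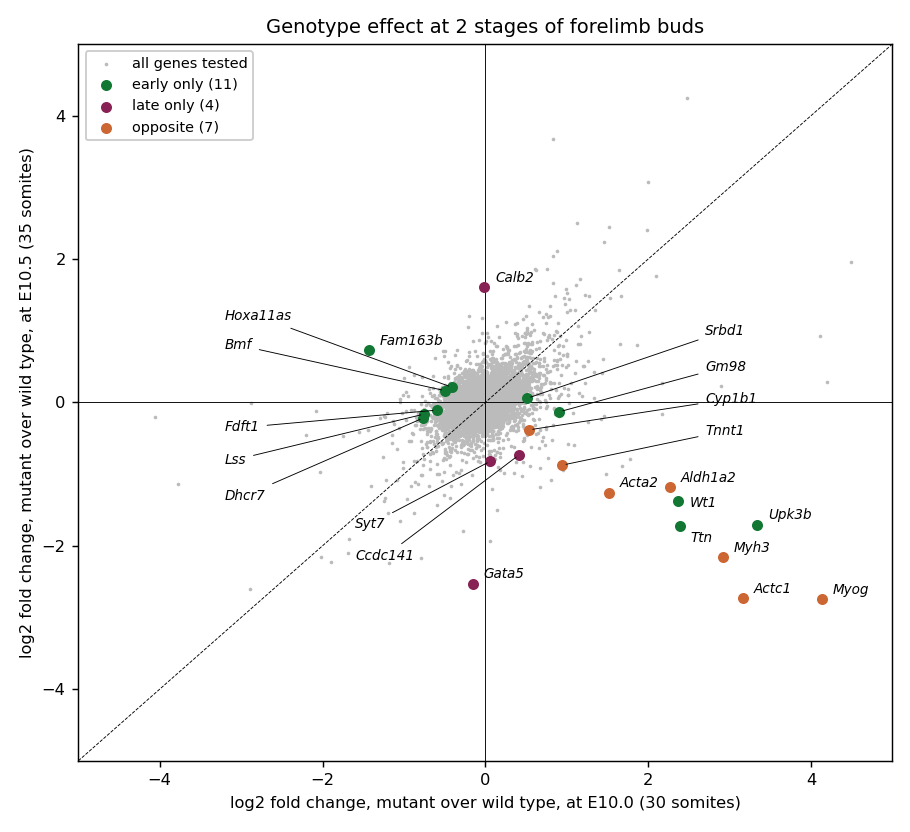
Each point is 1 of the genes tested, with its log2 fold change (mutant over wild type) at E10.0 on the x axis and at E10.5 on the y axis; the dashed line marks equal effects, and the 3 genes beyond 5 on either axis are not drawn. Coloured and named points are the 22 genes with a called difference between the stages, among which the 7 opposite genes lie in the lower right quadrant.

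Genes of the cholesterol biosynthesis pathway were lower in mutants at E10.0. Of 21 listed enzymes 20 were tested, as Hmgcs1, the synthase before the mevalonate step, had 0 to 6 reads per sample. Why so few reads were assigned to it was not tested, and this count is no measure of its expression. All 20 had a negative genotype effect at E10.0, 18 of them were called lower in mutants (2.63% of all genes), and none was called at E10.5 (2.66%). Their median effect was -0.58 on the log2 scale at E10.0 and -0.16 at E10.5, against -0.02 and -0.01 over all genes tested. The median difference between the stages was 0.42, and it was positive for all 20 enzymes. It passed the FDR for 3 enzymes, Lss, Dhcr7 and Fdft1 (0.172% of all genes), and had an unadjusted p under 0.05 for 16 (80.0%, against 5.66% of all genes). The counts at E10.0 and E10.5 come from different embryos, but the difference shares its samples with both. Like the other lists, this list was written with earlier results of these data known, and it holds 3 of the 22 genes called for the difference. These counts and medians therefore describe the list and are no test of it.

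Fdft1 encodes squalene synthase, which commits the pathway to sterols. It was at 162, 155 and 176 CPM in wild type and 109, 104, 106 and 116 CPM in mutants at E10.0. At E10.5, it was at 109.6, 131 and 124 CPM in wild type and 106, 114, 114 and 118 CPM in mutants. The genotypes were apart at E10.0 and overlapped at E10.5, with log2 fold changes of -0.60 (standard error 0.07, edgeR adjusted p = 0.000426) and -0.11 (standard error 0.07, adjusted p = 0.617). Lss, lanosterol synthase, closes the first sterol ring system. Its levels at E10.0 were 75.8, 79 and 83.6 CPM in wild type and 44.2, 45.1, 50.3 and 49.5 CPM in mutants. At E10.5 they were 44.3, 46.8 and 42.9 CPM and 35.3, 44.5, 39.6 and 40.2 CPM. The genotypes were apart at E10.0 and overlapped at E10.5, and the wild-type range at E10.5 overlapped that of the mutants at E10.0. Dhcr7 carries out the last reduction to cholesterol. It amounted to 104.9, 105.2 and 116 CPM in wild type and 64.5, 61.5, 63.9 and 66.9 CPM in mutants at E10.0, and to 66.5, 76 and 64.5 CPM and 54.6, 63.4, 62.2 and 57.3 CPM at E10.5. Its genotype groups did not overlap at either stage, but the effect was -0.76 early and -0.22 late. Compared between the stages, the effects differed by 0.49 for Fdft1 (standard error 0.10, adjusted p = 0.0921), 0.59 for Lss (standard error 0.11, adjusted p = 0.0766) and 0.54 for Dhcr7 (standard error 0.10, adjusted p = 0.0766).

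None of the other 17 enzymes passed the FDR for the difference. In the mevalonate branch, the decarboxylase Mvd had the most negative effect of the pathway at E10.0, -0.85, and -0.20 at E10.5. For Idi1 and Fdps, which make and join the isoprenoid units, the early effects were -0.66 and -0.67, and the late effects -0.20 and -0.25. Among the enzymes after squalene, the effects at E10.0 and E10.5 were -0.49 and -0.08 for squalene epoxidase Sqle, and -0.55 and -0.20 for the demethylase Cyp51. For the methyl sterol oxidase Sc4mol, they were -0.82 and -0.15, with the largest difference in the pathway (0.67, standard error 0.16, adjusted p = 0.228). The 2 enzymes not called at E10.0 were Lbr, a lamin B receptor with sterol reductase activity (-0.21), and the isomerase Ebp (-0.26). At E10.0, 19 of the 20 enzymes, all but Lbr, separated the genotypes without overlap, against 17.7% of all genes tested, and at E10.5 this held for 3 of 20, against 13.1% of all genes. These were Dhcr7, Acat2 and the sterol reductase Tm7sf2, which had the most negative effect of the pathway at E10.5, with 12.8, 14.3 and 10.8 CPM in wild type and 8.93, 8.78, 10.3 and 10.2 CPM in mutants (-0.40, and -0.69 at E10.0).

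**Figure D2:**
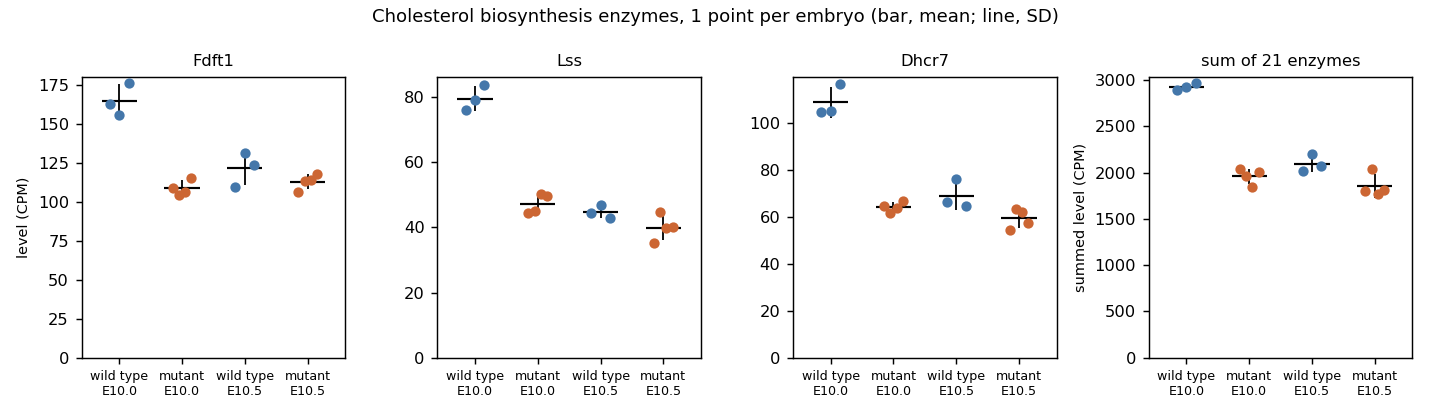
Levels of Fdft1, Lss and Dhcr7 and the summed level of the 21 listed enzymes, in CPM on linear axes from 0, with 1 point per embryo, the mean as a bar and the SD as a line. The wild-type embryos at E10.0 lie above all other embryos in each panel.

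Both genotypes were also followed over time. In wild-type embryos, 15 of the 20 enzymes were called lower at E10.5 than at E10.0, with a median log2 change of -0.49, while 4.15% of all genes were called lower. In mutants 1 of 20 was called lower, the median was -0.05, and 8.02% of all genes were called lower. The summed level of the enzymes, which holds practically no reads of Hmgcs1, was 2887, 2926 and 2969 CPM in the wild-type embryos at E10.0 and 2035, 1961, 1845 and 2001 CPM in the mutants. At E10.5, the sums were 2019, 2201 and 2068 CPM in wild type and 1802, 2041, 1764 and 1809 CPM in mutants. The E10.0 mutants lay between 1845 and 2035 CPM, and the E10.5 wild type between 2019 and 2201 CPM. These comparisons share the embryos of the genotype comparisons and are no separate evidence.

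The regulators of the pathway are listed apart from the enzymes. Among 12 genes for SREBP control and LDL uptake, 7 were called lower in mutants at E10.0 (2.63% of all genes) and none at E10.5 (1.08%), with medians of -0.47 and -0.17. Insig1, which retains the SREBP complex in the endoplasmic reticulum and is itself an SREBP target, was at 132, 146 and 136 CPM in wild type and 88.8, 86.8, 71.5 and 70.7 CPM in mutants at E10.0. E10.5 embryos had 83.2, 95.8 and 88.3 and 76.9, 92.8, 68 and 70.5 CPM. The groups were apart at E10.0 and overlapped at E10.5 (difference 0.58, standard error 0.15, edgeR adjusted p = 0.329). Srebf2, which encodes the SREBP that acts mainly on sterol enzymes, had effects of -0.47 and -0.13. The SREBP escort Scap and the proteases Mbtps1 and Mbtps2 were not called at either stage, with effects between -0.12 and 0.09 at E10.0.

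Of 16 genes for fatty acid synthesis and desaturation, 6 were called lower at E10.0 (2.63% of all genes) and 3 at E10.5 (1.08%), with medians of -0.20 and -0.09. None was called for the difference, and 4 had an unadjusted p under 0.05 for it (25%, against 5.66% of all genes), 3 with a positive and 1 with a negative difference. The desaturase Scd1 was lower in mutants at both stages, with 186, 203 and 199 CPM against 117, 112, 119.6 and 136 CPM at E10.0 and 123, 125 and 129.6 CPM against 91.5, 105.4, 93.9 and 96 CPM at E10.5. Its groups were apart at both stages, and the difference between the effects was 0.32 (standard error 0.10, edgeR adjusted p = 0.53). Of 9 genes for cholesterol efflux, 1 was called lower at E10.0 (2.63% of all genes), the oxysterol receptor gene Nr1h3, and none was called at E10.5 (2.66%), with medians of -0.05 and -0.06. Nr1h3 lay near the filter of 1 CPM, with 0.985 to 1.38 CPM in wild type and 0.558 to 0.922 CPM in mutants at E10.0.

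Without mutant replicates 4 and 5, the median difference of the 20 enzymes was 0.44, 15 of them had an unadjusted p under 0.05 and none passed the FDR. With the term that marks these replicates, the median was 0.42 and 9 enzymes passed, with adjusted p values of 0.035 for Lss, 0.0465 for Dhcr7 and 0.0472 for Fdft1. When 1 sample was left out at a time, 0 to 4 enzymes passed with medians of 0.38 to 0.47, and Lss, Dhcr7 and Fdft1 passed in 2, 3 and 3 of the 14 fits.

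To show the promoters of this group, RefSeq promoter windows of 300 bases (250 before and 50 after the annotated start, GRCm38.p6) were searched on both strands. Windows were found for 15 of the 20 enzymes. The NF-Y box CCAAT was present in at least 1 window of 14 of the 15 (93.3%), and in 41.1% of the 27025 genes with a window. NF-Y is a factor that acts together with SREBP at many sterol gene promoters. The sterol regulatory element core TCACNCCAC was found in none of the 15, and in 1.44% of all genes. The palindromic SMAD box GTCTAGAC was also found in none of them (0.248% of all genes), and the GC-rich SMAD motif GGCGCC in 3 (20%, against 13.4% of all genes). Such matches describe the letters in these windows. They are not shown to be bound sites. Only full matches to the given letters were counted, so that a missing match does not show that a site is absent. The windows of Lss (chr10:76531355-76531654, plus strand) and of the Dhcr7 start that carries NF-Y boxes (chr7:143829964-143830263, plus strand) are given 5′ to 3′ because both genes passed the test for stage dependence. Capitals mark CCAAT, or ATTGG where it lies on the other strand, which begins 62 bases before the start of Lss and 85 and 49 bases before that of Dhcr7.
Lss: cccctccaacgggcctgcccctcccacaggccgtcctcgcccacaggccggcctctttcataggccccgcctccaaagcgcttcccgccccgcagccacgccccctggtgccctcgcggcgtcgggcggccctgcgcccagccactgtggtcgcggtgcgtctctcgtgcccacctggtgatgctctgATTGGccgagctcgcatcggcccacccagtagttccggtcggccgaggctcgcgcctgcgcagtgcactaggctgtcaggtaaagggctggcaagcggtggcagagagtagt
Dhcr7: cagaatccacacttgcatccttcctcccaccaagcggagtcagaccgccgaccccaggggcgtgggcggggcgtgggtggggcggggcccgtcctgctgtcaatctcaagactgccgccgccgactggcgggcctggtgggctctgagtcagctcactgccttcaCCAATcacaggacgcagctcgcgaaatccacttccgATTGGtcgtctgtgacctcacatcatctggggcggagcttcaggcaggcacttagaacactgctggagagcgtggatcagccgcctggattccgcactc

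Of the other genes altered only at E10.0, Wt1, Upk3b, Ttn and Gm98 are described with the opposite genes, and 4 have no listed function in common. Bmf, which encodes a pro-apoptotic BH3-only protein, was at 48.7, 36 and 42.6 CPM in wild type and 29.7, 31.2, 30.1 and 29.4 CPM in mutants at E10.0, and at 54.9, 48 and 55 CPM and 55.2, 60.7, 59.8 and 60.1 CPM at E10.5. The mutants lay below the wild type at E10.0 and, by little, above it at E10.5 (difference 0.66, standard error 0.12, edgeR adjusted p = 0.0766). Fam163b, a gene known mainly from neural tissue, was at 1.16, 0.65 and 0.807 CPM in wild type and 0.345, 0.3, 0.316 and 0.331 CPM in mutants at E10.0. At E10.5, it was at 1.55, 0.888 and 1.11 CPM and 1.91, 1.82, 2.04 and 2.07 CPM. Its mutant values were again below and then above those of all wild-type embryos, and the difference was 2.17 (standard error 0.33, adjusted p = 0.0195), although the effect at E10.5 alone missed the FDR (adjusted p = 0.117). Srbd1, an S1 RNA-binding domain gene, was instead higher in mutants, with 39.5, 39.3 and 43 CPM against 57.6, 53.2, 59.8 and 61.5 CPM at E10.0. It had 57.3, 56.4 and 58 CPM in wild type and 60.4, 60.1, 60.8 and 57.1 CPM in mutants at E10.5, where the groups overlapped (difference -0.46, standard error 0.09, adjusted p = 0.0766).

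Hoxa11as, transcribed antisense to the limb patterning gene Hoxa11, was at 27, 26.7 and 27.6 CPM in wild type and 19, 18.4, 22 and 22.2 CPM in mutants at E10.0, and at 30.2, 30.5 and 30 CPM and 32.2, 34.6, 38.8 and 34.4 CPM at E10.5. The groups were apart at both stages in opposite directions, but of both effects that of -0.41 at E10.0 was called (edgeR adjusted p = 0.0149), and the effect at E10.5 was 0.21 (adjusted p = 0.291). Reads were counted without regard to strand, so that reads of Hoxa11as and of Hoxa11 cannot be told apart where both overlap. Ambiguous reads, which HTSeq could not give to a single gene, were left out of the counts of both. Hoxa11 itself had 68.3 to 78.3 CPM in wild type and 63.6 to 77.2 CPM in mutants at E10.0, with effects of -0.14 and -0.01 and a difference of 0.12 (adjusted p = 0.954). Without mutant replicates 4 and 5, the difference for Hoxa11as was 0.68 (edgeR adjusted p = 0.0421). Fam163b, Bmf and Srbd1 kept their sign in that fit but did not pass the FDR. When 1 sample was left out at a time, Fam163b passed the FDR for the difference in all 14 fits, Hoxa11as in 4, and Bmf and Srbd1 in 3 each.

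Of the 7 genes altered in opposite directions, 5 encode proteins of muscle cells. Myog, the transcription factor that drives terminal differentiation of myoblasts, was at 0.264, 0.0985 and 0.234 CPM in wild type and 5.4, 2.08, 2.87 and 3.79 CPM in mutants at E10.0. E10.5 embryos had 4.35, 2.91 and 7.44 CPM in wild type and 1.01, 1.44, 0.191 and 0 CPM in mutants, of which replicate 5 had no read. The groups were apart at both stages, with the mutants above wild type at E10.0 and below it at E10.5. The difference of the effects was -6.88 on the log2 scale (standard error 0.97, edgeR adjusted p = 0.0153). These values rest on few reads, 5 to 15 per wild-type embryo at E10.0 and 0 to 77 per mutant embryo at E10.5.

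Genes for the contractile apparatus showed the same order of groups. Actc1, cardiac α-actin, which embryonic skeletal muscle also expresses, was at 0.317, 0.217 and 0.722 CPM in wild type and 5.63, 1.82, 2.56 and 4.83 CPM in mutants at E10.0. It was at 8.63, 3.57 and 14 CPM and 1.55, 2.31, 0.654 and 0.47 CPM at E10.5. The difference was -5.90 (standard error 0.85, edgeR adjusted p = 0.0153), with the groups apart at both stages. Myh3, the embryonic myosin heavy chain, had 0.105, 0.394 and 0.276 CPM against 2.51, 0.733, 1.26 and 3.29 CPM at E10.0 and 3.91, 1.81 and 8.83 CPM against 1.25, 1.27, 0.845 and 0.878 CPM at E10.5. Tnnt1, slow skeletal troponin T, had 0.668, 0.729 and 0.658 CPM against 1.41, 1.1, 1.45 and 1.35 CPM and 2.04, 1.57 and 3.4 CPM against 1.3, 1.27, 1.25 and 1.25 CPM. For both, the mutants were above all wild-type embryos early and below all of them late, with differences of -5.08 and -1.82 (adjusted p = 0.0349 and 0.0627). Ttn, the sarcomeric spring titin, had the same signs (2.39 at E10.0 and -1.72 at E10.5) but was called at E10.0 alone. Late wild-type embryos held 1.02, 0.623 and 4.64 CPM of Ttn, and the mutants 0.666, 0.75, 0.518 and 0.565 CPM. Acta2, smooth muscle α-actin, which early skeletal muscle expresses as well, had 0.616, 0.887 and 0.849 CPM against 2.38, 1.55, 2.98 and 2.11 CPM at E10.0 and 3.1, 2.08 and 5.65 CPM against 1.33, 2.34, 1.09 and 1.16 CPM at E10.5, where the groups overlapped (difference -2.78, standard error 0.49, adjusted p = 0.0627).

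The markers of differentiating skeletal muscle were counted as a list, which contains Myog, Actc1, Tnnt1 and Ttn and was chosen knowing these results. Of 12 listed genes 7 were tested, 4 were called higher in mutants at E10.0 (2.17% of all genes) and 4 lower at E10.5 (1.08%), and the medians of the effects were 0.95 and -1.21. The other 5 fell under the filter. The list holds 4 of the 22 genes called for the difference, and low genes could pass the filter through the group in which they were high, so that these counts and the median difference of -1.90 (0.01 over all genes tested) describe the list and support nothing further. The summed level of the 12 genes was 11.6, 17.5 and 12.8 CPM in wild type and 26.8, 25.1, 23.1 and 26.3 CPM in mutants at E10.0. At E10.5, it was 26.2, 18.4 and 47.3 CPM in wild type and 10.7, 12.6, 7.88 and 6.8 CPM in mutants. No listed marker was at 0 in all embryos of a group. In wild type, the median stage effect of the 7 genes was 1.76, and in mutants it was -1.50. Wild-type replicate 3 at E10.5 was the highest of all 14 samples for Myog, Actc1, Myh3, Ttn, Tnnt1 and Acta2. Without it, the median difference was -1.45 and the opposite genes numbered 1 rather than 7.

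The summed level of 5 precursor markers was 99.1 to 112 CPM in wild type and 108 to 128 CPM in mutants at E10.0, and 126 to 139 CPM and 116 to 139.8 CPM at E10.5. Of these 5, Myf5 and 1 other were called higher in mutants at E10.0 (2.17% of all genes) and none at E10.5, and none passed the FDR for the difference. The difference was negative for 4 of the 5, and 3 of these had an unadjusted p under 0.05 (60%, against 5.66% of all genes). Whether the precursors and the differentiation markers differ in this respect was not tested. Myf5, the first myogenic factor in somites, had 0.721, 0.591 and 0.361 CPM against 1.91, 1.1, 1.48 and 0.9 CPM at E10.0 and 3.82, 4.57 and 6.6 CPM against 4.85, 4.46, 3.24 and 3.98 CPM at E10.5 (difference -1.53, standard error 0.40, edgeR adjusted p = 0.312). Pax3 and Lbx1, which mark progenitors that migrate into the limb bud, had early effects of 0.09 and -0.38 and late effects of -0.26 and -0.18.

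The mesothelial genes Wt1 and Upk3b also had effects of opposite sign, but were called at E10.0 alone. Wt1, a transcription factor of the mesothelium and the body wall, was at 1.55, 1.81 and 0.849 CPM in wild type and 5.11, 9.53, 9.72 and 4.88 CPM in mutants at E10.0, and at 2.15, 3.23 and 3.8 CPM and 1.72, 1.67, 0.654 and 0.439 CPM at E10.5. The groups were apart at both stages in opposite directions, with a difference of -3.75 (standard error 0.58, edgeR adjusted p = 0.0195), and the E10.5 effect missed the FDR (adjusted p = 0.123). Upk3b, a uroplakin of mesothelial cells, was at 0.598, 0.69 and 0.106 CPM in wild type and 3, 8.01, 5.4 and 2.72 CPM in mutants at E10.0. It was at 0.509, 0.85 and 1.39 CPM and 0.205, 0.6, 0.109 and 0.125 CPM at E10.5, where the groups overlapped (difference -5.04, standard error 0.84, adjusted p = 0.038). Outside the E10.0 mutants, Upk3b exceeded 1 CPM in the wild-type embryo with 1.39 CPM alone. It thus passed the filter through the group in which it was high. Of 8 listed mesothelium markers 6 were tested, 3 were called higher in mutants at E10.0 (2.17% of all genes) and none was called at E10.5 (2.66%). The median difference was -1.24. This list contains Wt1 and Upk3b and was chosen knowing these results, so that these counts and the median describe the list and support nothing further. The summed level of the 7 listed genes present in the files was 20.9, 20 and 15.8 CPM in wild type and 28.7, 43.7, 38.7 and 25.3 CPM in mutants at E10.0. At E10.5, it was 22.1, 19.8 and 23.5 CPM in wild type and 12.7, 19.6, 14.6 and 14.1 CPM in mutants.

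The remaining opposite genes were Aldh1a2 and Cyp1b1. Aldh1a2, the main retinoic acid synthesizing enzyme of the trunk, had the smallest p for stage dependence of all 12806 genes tested. It was at 5.22, 6.38 and 3.69 CPM in wild type and 18.9, 33.1, 30.6 and 15.5 CPM in mutants at E10.0, and at 7.47, 10.8 and 12.1 CPM and 5.15, 5.14, 4.17 and 3.14 CPM at E10.5. The groups did not overlap at either stage. Mutants differed from wild type by 2.26 on the log2 scale at E10.0 (standard error 0.28, edgeR adjusted p = 0.000755) and by -1.19 at E10.5 (standard error 0.27, adjusted p = 0.0356), with a difference of -3.45 (standard error 0.39, adjusted p = 0.00346). Cyp1b1, a cytochrome P450 that can also oxidize retinol, was at 25, 26.2 and 25.1 CPM in wild type and 37.8, 34.3, 38.6 and 37.2 CPM in mutants at E10.0. E10.5 embryos had 28.2, 22.4 and 25.6 CPM and 21.5, 20.6, 17.4 and 18.2 CPM, again without overlap (difference -0.92, standard error 0.13, adjusted p = 0.0153). Of the 12 tested genes for retinoic acid synthesis, breakdown and response, which do not include Cyp1b1, Aldh1a2 was the one called for the difference, and the list median was -0.02.

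**Figure D3:**
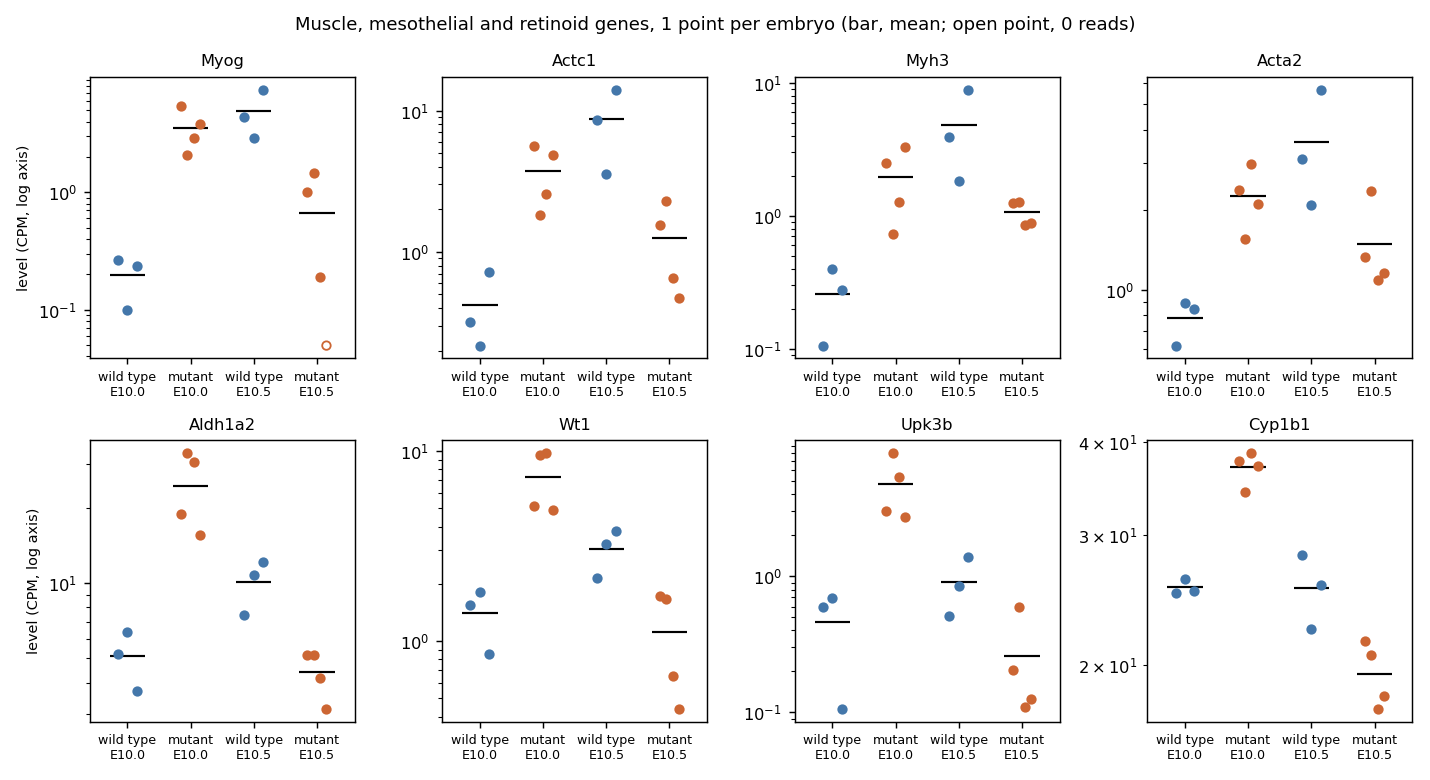
Levels of Myog, Actc1, Myh3, Acta2, Aldh1a2, Wt1, Upk3b and Cyp1b1 in CPM on log axes, with 1 point per embryo and the mean as a bar; the open point is the mutant embryo without Myog reads, drawn below the lowest value. In each panel the mutants lie above the wild type at E10.0, and their mean lies below it at E10.5.

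Gm98, the RefSeq gene Myrf, which encodes a membrane-bound transcription factor known from myelination, was higher in the mutants at E10.0 (40.9, 60.8, 64.5 and 41.2 CPM against 27.6, 30 and 25.1 CPM) and had 27.7, 29.1, 28.4 and 26.3 CPM in mutants against 30.7, 27.4 and 33.5 CPM in wild type at E10.5 (difference -1.04, standard error 0.20, edgeR adjusted p = 0.0873). Whether the amount of trunk tissue left on the dissected forelimb buds differed between the groups was not tested beyond these marker levels. Apart from Acta2 in the smooth muscle list, other marker lists gave no call for the difference. The 5 smooth muscle markers summed to 2.31 to 3.15 CPM in wild type and 4.54 to 7.77 CPM in mutants at E10.0, and to 5.67 to 9.29 and 4.33 to 6.2 CPM at E10.5. The summed level of 9 somite and sclerotome markers was 86.9 to 110.1 CPM in wild type and 104 to 133 CPM in mutants at E10.0, and 151 to 187 and 198 to 225 CPM at E10.5.

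Of the 7 opposite genes, Aldh1a2 (-3.33, adjusted p = 0.0154) and Myog (-6.21, adjusted p = 0.0154) still passed the FDR for the difference in edgeR without mutant replicates 4 and 5, as did Wt1 (-3.23, adjusted p = 0.0752). Actc1 (-5.35, adjusted p = 0.119) and Cyp1b1 (-0.77, adjusted p = 0.119) did not, and neither did Myh3, Acta2 and Tnnt1, with adjusted p of 0.31, 0.43 and 0.43. Upk3b, Ttn and Gm98, which were called at E10.0 alone, did not pass in that fit either. With 1 sample left out at a time, Aldh1a2, Cyp1b1, Myog, Actc1 and Wt1 passed in all 14 fits, Myh3 and Upk3b in 11, Acta2 and Tnnt1 in 7, Ttn in 3 and Gm98 in 2.

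Promoter windows were found for all 6 called muscle genes (Myog, Actc1, Myh3, Tnnt1, Ttn and Acta2). An exact match to the CArG box, which binds the serum response factor, was found in 1 of 6, against 1.81% of all genes with a window. The muscle E-box CAGCTG was found in 1 of 6, against 18.3%. Near matches to the CArG box, such as ccctatatgg in the windows of Acta2 and Actc1, were not counted. A window without an exact match is therefore not shown to lack such a site. Neither SMAD motif was found in any. The motifs for this group were chosen after the values had been seen. The Actc1 window (GRCm38.p6, chr2:114052826-114053125, minus strand) is shown with its exact CArG box match, which begins 47 bases before the start, in capitals.
Actc1: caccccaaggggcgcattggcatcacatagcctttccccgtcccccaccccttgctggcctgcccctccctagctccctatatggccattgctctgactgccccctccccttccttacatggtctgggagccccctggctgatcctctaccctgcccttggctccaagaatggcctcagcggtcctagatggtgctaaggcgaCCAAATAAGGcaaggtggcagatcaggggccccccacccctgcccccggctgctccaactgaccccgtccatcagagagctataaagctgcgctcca

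Genes altered only at E10.5 were few. Calb2, the calcium-binding protein calretinin, which is known from neurons and also from mesothelium, was at 2.25, 1.56 and 1.66 CPM in wild type and 1.77, 1.92, 1.84 and 1.7 CPM in mutants at E10.0. It was at 1.85, 2.15 and 1.79 CPM in wild type and 5.1, 4.99, 5.91 and 7.62 CPM in mutants at E10.5. The mutants at E10.5 were above all other embryos, with a log2 fold change of 1.60 at E10.5, of -0.01 at E10.0 and a difference of 1.62 (standard error 0.25, edgeR adjusted p = 0.0195). Among the genes called only late, Calb2 was the single one that was higher in mutants.

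Gata5, a GATA transcription factor of heart, gut and lateral mesoderm, was at 1.94, 3.05 and 2.21 CPM in wild type and 1.71, 3.31, 2.24 and 1.28 CPM in mutants at E10.0, and at 2.06, 1.59 and 1.77 CPM and 0.358, 0.394, 0.218 and 0.22 CPM at E10.5. All mutants at E10.5 lay below all other embryos, and the difference was -2.37 (standard error 0.44, edgeR adjusted p = 0.0739). Syt7, a calcium sensor for vesicle exocytosis, had 7.33, 8.24 and 8.26 CPM against 7.47, 9.83, 8.82 and 6.98 CPM at E10.0 and 6.29, 5.35 and 5.61 CPM against 3.31, 3.06, 3.27 and 3.39 CPM at E10.5. It declined with stage in both genotypes, by 0.47 on the log2 scale in wild type and by 1.35 in mutants (adjusted p = 0.046 and 5.84e-06), with a difference of -0.88 (standard error 0.17, adjusted p = 0.0812). Ccdc141, which encodes a coiled-coil protein, had 3.29, 4.38 and 3.25 CPM against 4.79, 4.9, 4.77 and 4.9 CPM at E10.0 and 4.28, 4.55 and 6.41 CPM against 3.28, 3.45, 2.73 and 2.7 CPM at E10.5. Its groups were apart at both stages in opposite directions, and the E10.0 effect of 0.41 missed the FDR (adjusted p = 0.163).

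In the mm9 annotation, Ccdc141 lies at chr2:76847960-77008693 (minus strand) and Ttn at chr2:76542037-76820604 (minus strand), 27.4 kb apart. Both had a positive genotype effect early and a negative one late. Whether reads of 1 of the genes extend into the other was not tested. Syt7, at chr19:10463580-10527671 (plus strand), lies 148 kb from Gm98, at chr19:10282762-10315238 (minus strand). The leading opposite genes Aldh1a2 and Myog lie at chr9:71063596-71144050 (plus strand) and chr1:136186581-136189124 (plus strand). None of the 4 late genes passed the FDR without mutant replicates 4 and 5 (edgeR adjusted p 0.267 for Gata5, 0.301 for Calb2, 0.31 for Syt7 and 0.478 for Ccdc141). With the term that marks these replicates all 4 passed, with adjusted p from 0.0159 for Calb2 to 0.0707 for Syt7. Of the 14 fits that left out 1 sample each, Calb2 passed in all, Gata5 in 5, and Syt7 and Ccdc141 in 2.

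**Figure D4:**
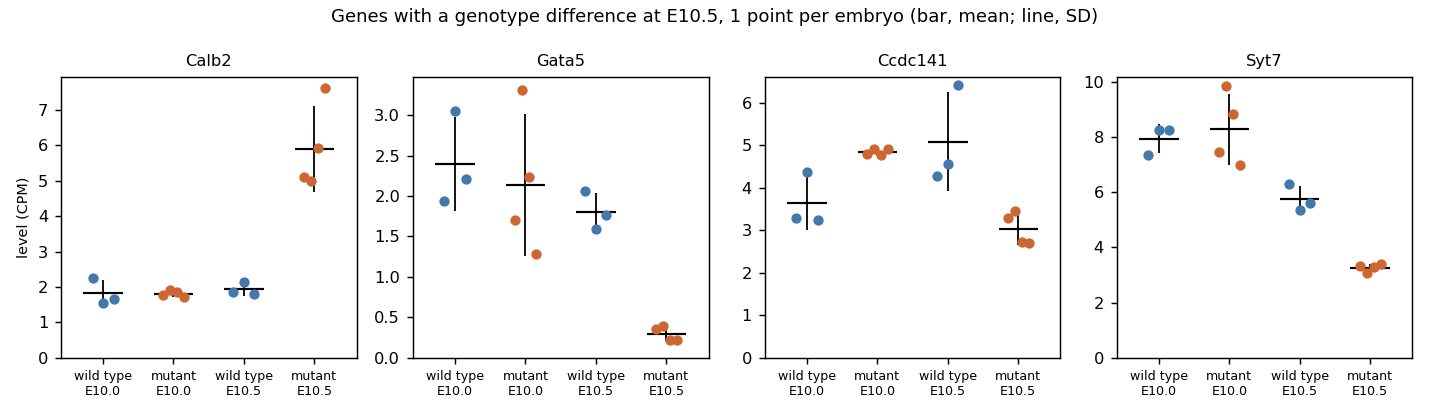
Levels of Calb2, Gata5, Ccdc141 and Syt7 in CPM on linear axes from 0, with 1 point per embryo, the mean as a bar and the SD as a line. The 4 mutants at E10.5 lie above all other embryos for Calb2 and below the wild-type embryos of that stage for the other genes.

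Genes that respond to BMP signalling were lower in mutants at both stages, without a called difference. Of 11 BMP response genes, 7 were called lower at E10.0 (2.63% of all genes) and 7 at E10.5 (1.08%), none was called higher, and the medians of the effects were -0.68 and -0.64. Id1, an inhibitor of bHLH factors and an immediate SMAD target, ranged from 31.8 to 47.7 CPM in wild type and from 13.8 to 21.5 CPM in mutants at E10.0, and from 31 to 35.8 CPM and 12.9 to 14 CPM at E10.5. Its groups were apart at both stages, and the difference of the effects was -0.09 (standard error 0.21, edgeR adjusted p = 0.971). For Id3, also an inhibitor of bHLH factors, the difference was -0.14 (standard error 0.31), and for the inhibitory SMAD gene Smad7 it was 0.06 (standard error 0.13). Larger late effects without a call were seen for the homeobox gene Msx2 (-1.05 and -1.66, difference -0.60, adjusted p = 0.811) and for Smad9, a receptor-activated SMAD of the BMP branch. Smad9 had 2.23, 4.67 and 2.61 CPM against 1.08, 1.73, 1.63 and 1.14 CPM at E10.0 and 2.04, 2.08 and 1.74 CPM against 0.307, 0.525, 0.409 and 0.408 CPM at E10.5, apart at both stages (difference -1.06, standard error 0.39, adjusted p = 0.74).

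BMP ligands and antagonists gave no call for the difference, but their effects were unequal in places. Bmp2 had effects of 0.17 at E10.0 and 0.91 at E10.5 (difference 0.74, edgeR adjusted p = 0.347), and Bmp4 of 0.38 and 0.34. Bmp5 was at 6.16, 5.08 and 5.26 CPM in wild type and 7.93, 7.2, 7.32 and 4.78 CPM in mutants at E10.0, and at 6.75, 7.95 and 8.18 CPM and 5.39, 5.4, 5.31 and 3.76 CPM at E10.5. Its groups overlapped at E10.0 and were apart at E10.5, where it was called lower (adjusted p = 0.0866), and the difference of -0.92 missed the FDR (adjusted p = 0.312). The antagonists Grem1 and Smoc1 were called at both stages, Grem1 lower (-1.22 and -1.09) and Smoc1 higher (0.91 and 0.93), with differences of 0.13 and 0.02. Among receptors and SMADs, Tgfbr2 was called higher at E10.5 (0.43) and had 0.19 at E10.0 (difference 0.25, adjusted p = 0.811).

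Other limb signalling pathways were described by their lists in the same way, and none of their members passed the FDR for the difference. For the SHH pathway, 1 of 15 genes was called at each stage, near the share of all genes (4.8% at E10.0, 2.66% at E10.5), the receptor gene Ptch1 higher at E10.0 and the antagonist Hhip higher at E10.5, and the median difference was 0.03. Of 8 tested FGF ligand and receptor genes and 10 FGF feedback and response genes, none was called at E10.0 (4.8% of all genes). At E10.5, Fgf9 and Fgf18 were called higher (1.59% of all genes) and the receptor genes Fgfr2 and Fgfr3 lower (1.08%). The feedback inhibitors Spry2 and Spry4 were also called higher at E10.5. As no difference between the stages was called, these genes are not shown to be altered only late. Spry2 was at 30.5, 31.9 and 38.8 CPM in wild type and 40.6, 33.8, 35.2 and 38.5 CPM in mutants at E10.0, and at 33.4, 34.7 and 31.7 CPM and 47.3, 45.8, 47.4 and 46.3 CPM at E10.5, where the groups were apart (difference 0.35, standard error 0.12, edgeR adjusted p = 0.674). Fgf18 had 0.809, 0.808 and 0.764 CPM against 0.64, 0.467, 0.711 and 0.971 CPM at E10.0 and 1.32, 1.28 and 1.3 CPM against 2.25, 2.42, 3.46 and 2.76 CPM at E10.5 (difference 1.27, standard error 0.31, adjusted p = 0.269). The Wnt agonist Rspo4 was lower in mutants at both stages, with 86.1, 80.7 and 75.1 CPM against 39.2, 62.2, 60.4 and 52.2 CPM at E10.0 and 63.1, 51.5 and 50.8 CPM against 20.8, 21.5, 20.8 and 18.9 CPM at E10.5. Its groups were apart at both stages, and its difference was -0.83 (standard error 0.18, adjusted p = 0.184). The Wnt antagonist Dkk1 had effects of -1.68 and -1.91, and the Wnt inhibitor Wif1 of -0.39 and 0.24 (difference 0.63, adjusted p = 0.202). Znrf3, a ubiquitin ligase that removes Wnt receptors, had the smallest p among Wnt ligands and response genes (difference -0.36, adjusted p = 0.606).

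Among 29 limb patterning transcription factors, 8 were called lower at E10.0 (2.63% of all genes), and 10 lower (1.08%) and 2 higher (1.59%) at E10.5, with median effects of -0.09 and -0.13. Tbx3 was at 58.3, 66.7 and 60.5 CPM in wild type and 50.9, 54.8, 59.5 and 54.5 CPM in mutants at E10.0, and at 66.7, 66.5 and 71.2 CPM and 47.5, 50, 45.9 and 40.6 CPM at E10.5. The groups overlapped at E10.0 and were apart at E10.5 (difference -0.39, standard error 0.11, edgeR adjusted p = 0.404). Its paralogue Tbx2 was called lower at both stages (-0.79 and -1.01), as were Lhx2 (-0.47 and -0.54) and Prrx2 (-1.01 and -0.83). Pax1, a scapula and sclerotome gene, had the most negative effects of this list, -2.89 and -2.61. Of 20 tested HoxA and HoxD genes, Hoxd13, which acts in the posterior distal bud, was called higher at both stages (0.43 and 0.48), and the smallest p for the difference was that of Hoxd9 (0.19, adjusted p = 0.831). Of 15 chondrogenic and connective tissue genes, 4 were called lower at E10.0 (2.63% of all genes) and 3 at E10.5 (1.08%), with 2 higher at E10.5 (1.59%), the tendon and connective tissue genes Scx and Osr2. The joint gene Gdf5 was called lower at E10.0, with 0.704, 0.433 and 1.02 CPM against 0.279, 0.15, 0.343 and 0.426 CPM, and had 0.856, 1.06 and 1.28 CPM against 0.614, 0.956, 1.2 and 0.941 CPM at E10.5 (difference 1.08, standard error 0.48, adjusted p = 0.841). Chrna1, a subunit of the muscle acetylcholine receptor, was higher in mutants at both stages (2.10 and 1.77), unlike the muscle genes above, with a difference of -0.33 (standard error 0.28, adjusted p = 0.954).

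**Figure D5:**
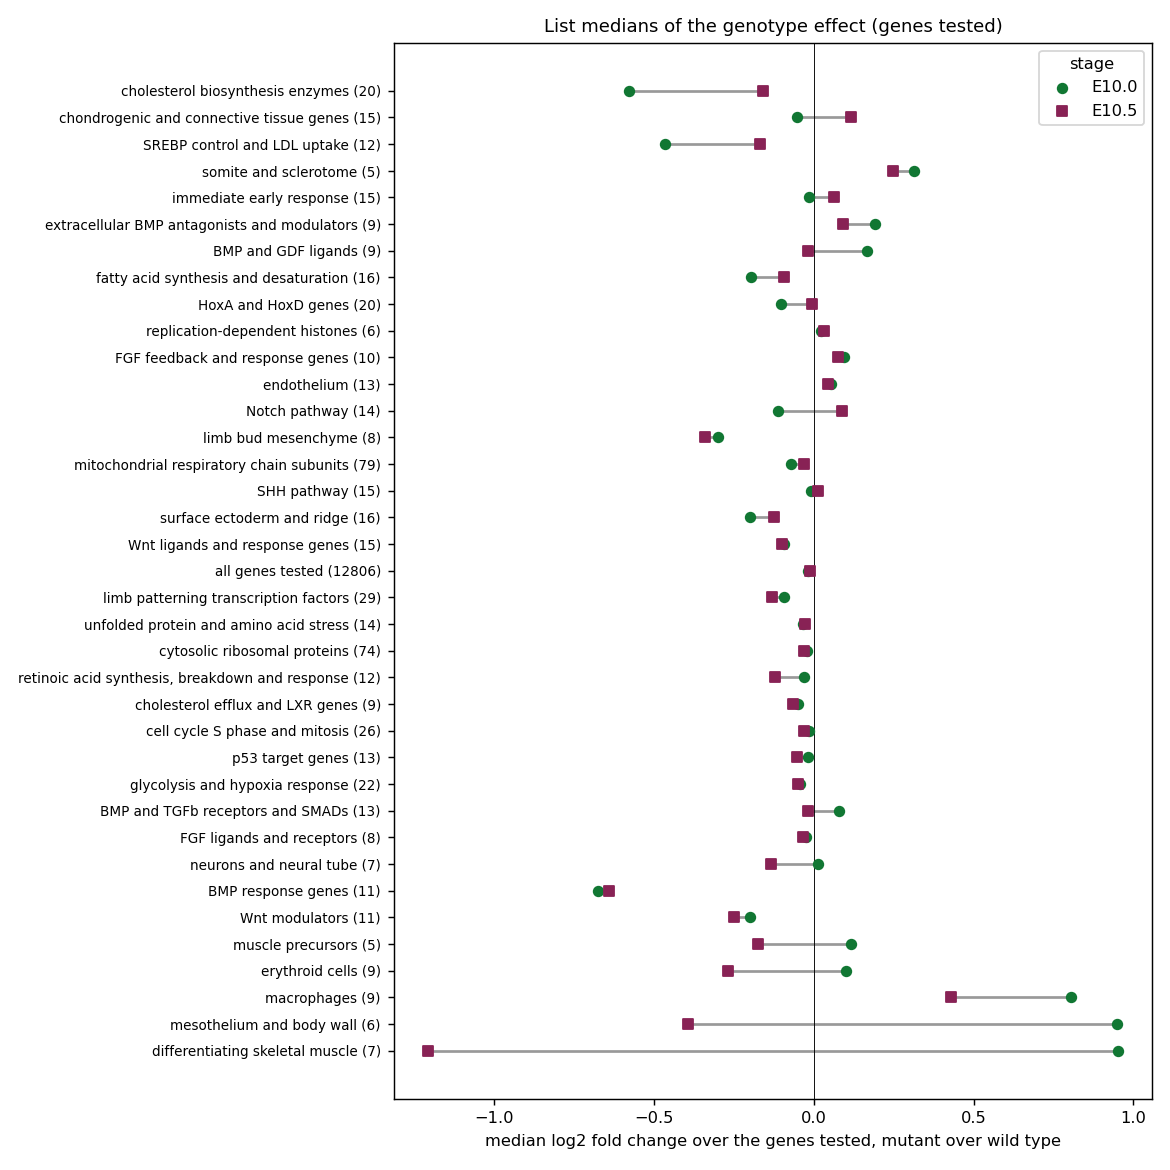
Median log2 fold change (mutant over wild type) over the tested genes of each list with 5 or more such genes, at E10.0 (circles) and at E10.5 (squares), with the number of genes in parentheses and the lists ordered by their median difference. Cholesterol biosynthesis enzymes shift from -0.58 to -0.16, differentiating skeletal muscle from 0.95 to -1.21, and BMP response genes stay near each other at -0.68 and -0.64.

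Lists for general cell functions had median genotype effects between -0.11 and 0.09 at both stages. The median difference was -0.02 for 26 cell cycle genes, -0.06 for 22 glycolysis and hypoxia genes, -0.03 for 13 p53 targets and -0.01 for 14 stress genes. It was -0.01 for 74 cytosolic ribosomal protein genes, 0.03 for 79 respiratory chain genes, 0.11 for 6 histone genes, 0.15 for 15 immediate early genes and 0.07 for 14 Notch pathway genes. No member of these lists passed the FDR for the difference. The Notch list was led by the feedback gene Nrarp (0.33, edgeR adjusted p = 0.529) and the glycolysis list by Hk2, hexokinase 2 (-0.37, adjusted p = 0.754). Among the cell type lists, macrophages had a median difference of -0.54, without a call. The 9 tested macrophage genes had median effects of 0.81 (E10.0) and 0.43 (E10.5), while 3 genes, Cx3cr1, Mrc1 and C1qc, were called higher early (2.17% of all genes). Low genes could pass the filter through the groups in which they were high, so that this count and these medians describe the list. The summed level of the 13 macrophage markers was 4.12 to 9.69 CPM in wild type and 11.5 to 13.3 CPM in mutants at E10.0, apart, and 18.2 to 22 CPM and 22.8 to 33.2 CPM at E10.5, also apart. Cx3cr1, the fractalkine receptor of macrophages, had 1.21, 0.67 and 0.807 CPM against 2.74, 2.15, 1.87 and 2.32 CPM at E10.0 and 4.05, 3.61 and 3.57 CPM against 6.35, 5.74, 4.5 and 3.42 CPM at E10.5 (difference -0.91, standard error 0.32, adjusted p = 0.694). The median differences were 0.09 for 13 endothelial genes, -0.37 for 9 erythroid genes, 0.02 for 16 ectodermal genes and -0.11 for 7 neural genes.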

How the data were processed

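Forelimb buds of 14 embryos were profiled by polyA RNA-seq with single 50-base reads. The authors deposited raw counts per gene symbol, and their processing notes name TopHat2 2.0.13, HTSeq and mm9. The library type is unstranded, so that reads of antisense genes cannot be told apart where the genes overlap. Here, 5 summary lines per file were dropped (reads on no gene, 6.18% to 9.86%, and ambiguous reads, 1.49% to 1.75% of reads assigned, unassigned or ambiguous), and genes with at least 1 CPM in 3 samples were kept. Libraries were TMM-normalized, 4 group means were fitted over all 14 samples with edgeR's quasi-likelihood test (edgeR 4.0.16, R 4.3.3), and p values were Benjamini-Hochberg adjusted over all 12806 genes. The stage dependence is the E10.5 effect minus the E10.0 effect, called at an FDR of 0.1. Genotype calls also required a 1.2-fold change. Standard errors were derived from the F statistics. Levels are TMM-normalized CPM. No pair of replicates had counts equal within sampling noise (chi-square per degree of freedom at least 14.1).

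Named genes were Smad4, up to 5 per class and direction by smallest p (unnamed loci left out), and for each of 27 functional and 13 marker lists up to 3 called members or the one with the smallest p. Gm98 and further list members were named after their values were seen. The members and lists were chosen with earlier results of these data known. The procedure was tested on simulated counts. Alternatives used DESeq2 1.42.0, limma 3.58.1, other filters and fewer samples. Software for tables and plots was Python 3.11.15 and matplotlib 3.10.9. Values of some list members are not reported here.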

Additional observations from a re-analysis of the deposited data

Results flagged for a closer look

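For 22 genes the genotype effect differed between the stages by the test of the difference itself (edgeR's quasi-likelihood test, FDR 0.1). The differences, E10.5 minus E10.0 on the log2 scale, were positive for Fam163b (2.17), Calb2 (1.62), Bmf (0.66), Hoxa11as (0.62), Lss (0.59), Dhcr7 (0.54) and Fdft1 (0.49). They were negative for Srbd1 (-0.46), Syt7 (-0.88), Cyp1b1 (-0.92), Gm98 (-1.04), Ccdc141 (-1.15), Tnnt1 (-1.82), Gata5 (-2.37), Acta2 (-2.78), Aldh1a2 (-3.45), Wt1 (-3.75), Ttn (-4.11), Upk3b (-5.04), Myh3 (-5.08), Actc1 (-5.90) and Myog (-6.88).

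Single embryos were also flagged by an outlier test (Dixon's), which judges an embryo against the spread of its group and not by the size of its distance. Of 114 groups of 4 mutant embryos examined for the named genes, 7 held a flagged embryo. Chance alone flags about 1 group in 20, and the count found is near that share. These were mutant replicate 3 at E10.0, highest for Smad4 (44.2 CPM) and lowest for Tbx4 (2.13 CPM), and mutant replicate 4 at E10.0, highest for Hk2 (111.8 CPM). At E10.5, they were mutant replicate 1, lowest for Bmf (55.2 CPM) and Hbb-bh1 (723 CPM), and mutant replicate 5, lowest for Srbd1 (57.1 CPM) and Bmp5 (3.76 CPM). The wild-type groups of 3 were not examined.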

How the results depend on the processing

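All 22 genes kept the sign of their difference in every fit. Their number called moved to 84 under DESeq2, 8 under limma-voom, 38 without a filter, 9 at an FDR of 0.05, 6 without mutant replicates 4 and 5 (which left 4 of the 22 called), and 50 with the term for these replicates, added after the data had been seen (22 of 22). Leaving out 1 sample gave 7 to 34, and the count moved by over 1.5 times without mutant replicate 4 (10) or 5 (34) or wild-type replicate 1 (9), 2 (14) or 3 (9) of E10.0, and without mutant replicate 2 (11), 4 (9) or 5 (7) or wild-type replicate 1 (13) or 3 (10) of E10.5. Aldh1a2, Cyp1b1, Myog, Actc1, Fam163b, Wt1 and Calb2 passed in all 14 of these fits, and Lss and Dhcr7 in 2 and 3. The genotype calls at E10.0 were 1007 under DESeq2, 262 at an FDR of 0.05, 1893 without mutant replicates 4 and 5, 2529 with their term, and 133 to 784 with 1 sample left out (401 and 277 without mutant replicates 1 and 5, 298 and 133 without wild-type replicates 1 and 3). The genotype calls at E10.5 were 517 under DESeq2, 540 with the term, and 180 to 401 with 1 sample left out (210 and 180 without wild-type replicates 1 and 2).

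Early genes (11) numbered 38 under DESeq2, 3 under limma-voom, 6 under limma-trend, 17 with filterByExpr, 18 without a filter, 3 at an FDR of 0.05, 3 without mutant replicates 4 and 5, 30 with their term, and 3 to 17 with 1 sample left out. Late genes (4) numbered 26 under DESeq2, 1 under limma-voom, 8 without a filter, 1 at an FDR of 0.05, 0 without mutant replicates 4 and 5, 9 with their term, and 1 to 11 with 1 sample left out. Opposite genes (7) numbered 12 under DESeq2, 4 under limma-voom, 11 without a filter, 1 without mutant replicates 4 and 5, and 1 to 8 with 1 sample left out (1 without wild-type replicate 3 of E10.5). Genes of unequal size in the same direction (0) numbered 2 under DESeq2, 1 without a filter, 2 without mutant replicates 4 and 5, and 0 to 1 with 1 sample left out. Genes with a difference but no genotype call (0) numbered 6 under DESeq2 and 1 with the term. The causes were not tested.

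Replicate numbers were not taken to pair the samples, as the 14 same-numbered pairs had correlations of -0.431 to 0.618 (mean 0.0362), with 0.576, 0.618 and 0.273 for mutant replicates 1, 4 and 5 across the stages, -0.08, -0.11 and -0.285 for wild-type replicates 1, 2 and 3, and a mean of -0.0801 for the 4 genotype pairs within a stage. With a replicate block, 18 genes were called for the difference (12 of the 22), genotype calls at E10.0 were 2018, and 1 gene was opposite. For named genes, 208 alternative values lost the call, 16 gained it and none reversed. Genes at a few reads per embryo, such as Myog, are limited by depth.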
